A study of Mus musculus with 6 samples.

Results

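The genes described here encode the potassium, calcium and sodium channels of mouse. They were all protein-coding genes on chromosomes 1 to 19 whose symbol starts with Kcn or Cacn, or is Scn followed by a number and a letter, with 1 gene left out. This gave 130 of the 20806 protein-coding genes on these chromosomes, with 91 potassium, 25 calcium and 14 sodium channel genes. The histone mark H3K9me3 (histone H3 with 3 methyl groups on lysine 9) was profiled by ChIP-seq, in which chromatin bound by an antibody is sequenced, in neural stem cells (NSCs). The NSCs came from fetal cerebral cortex of C57BL/6J mice, were grown with EGF and FGF, and were all transduced with lentivirus. The first group carried a scrambled shRNA (shCTR) and the other an shRNA against PHF8 (shPHF8), a histone demethylase. Each condition had 2 ChIP libraries and 1 input, and the labels do not say whether the libraries came from separate cultures, so the spread between them may be technical.

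Channels of these families let ions cross the membrane and so set the electrical excitability of neurons, muscle and gland cells. In each family pore-forming (alpha) subunits make the channel, and auxiliary subunits alter its gating or its delivery to the membrane. Most of them are used by differentiated cells rather than by dividing stem cells, and several serve tissues outside the brain, such as heart or sensory ganglia. H3K9me3 is a mark of compact, silenced chromatin, and it can lie over gene starts, gene bodies or the repeats between genes.

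The measure throughout is the number of bases covered by called peaks, in the gene body (start to end of the annotated gene) and in a promoter window of 3 kb on each side of the gene start. Peaks on chromosomes 1 to 19 numbered 44205 to 55344 per library. They covered 156 and 159 Mb in shCTR replicates 1 and 2, and 219 and 197 Mb in shPHF8 replicates 1 and 2. The median peak was 2400 bases wide in both shCTR libraries but 4200 and 2800 bases in shPHF8, so every comparison of covered bases runs against a wider total in shPHF8. The lists hold positions without read counts, so the depth behind a peak is unknown here and a change in height is not seen. By the mapping counts in the paper, shPHF8 replicate 2 had the fewest mapped reads of these libraries. Whether this bears on its peaks was not tested. A gene is said to have more (or fewer) covered bases in shPHF8 when both shPHF8 libraries lay above (or below) both shCTR libraries. With 2 libraries against 2, an exact two-sided permutation test of 1 gene cannot go below p = 0.333, so the counts are set beside those over all genes. H3K9me3 carries no direct reading of cell identity. Of the NSC marker genes checked, 2 of 12 (Pax6 and Prom1) had a promoter peak in all 4 libraries, against 1 of 5 neuronal, 0 of 4 oligodendrocyte, 0 of 3 astrocyte, 0 of 3 microglial and 1 of 2 endothelial markers.

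A promoter peak was present in all 4 libraries for 34 of the 130 channel genes (26.2%), against 11.7% of all protein-coding genes. Other genes, averaged over the same gene length classes, stood at 11.9%. The share was 30.8% for potassium (28 of 91), 28.6% for sodium (4 of 14) and 8.0% for calcium channel genes (2 of 25). No promoter peak in any library was found for 67 channel genes (51.5%), where the share over all genes was 70.7%. By family this was 48 of 91 potassium, 12 of 25 calcium and 7 of 14 sodium channel genes, so that 13 calcium channel genes had a promoter peak in at least 1 library although 2 had one in all 4. The gene start itself lay inside a peak in all 4 libraries for 9 channel genes, 6.92% of them, against 3.78% of all genes. All of these were potassium channel genes from several branches of the family, among them Kcnq1 (a KCNQ or Kv7 channel), Kcnh3 (an EAG-family channel), Kcns3 (a silent modulatory subunit), Kcnj3, Kcnj5 and Kcnj10 (inward rectifiers), and Kcnk15 and Kcnk18 (tandem pore domain leak channels).

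Promoter coverage was wide in several genes with a peak in every library. Scn4b, a sodium channel beta subunit, had 4606 and 3995 covered bases of its promoter window in shCTR and 6001 and 4601 in shPHF8. Kcns3 had 4345 and 4945 in shCTR and 4945 and 4545 in shPHF8. In both genes the conditions overlapped. Kcnj5, a G protein-gated inward rectifier of heart and brain, had 4000 and 3600 covered bases in shCTR and 5000 and 5200 in shPHF8, without overlap. Kcnk6 (3715 and 4315 against 4801 and 4315), Kcnk12 (3207 and 4401 against 5201 and 4201) and Kcnh3 (3000 and 6001 against 3461 and 3461) overlapped between the conditions. Kcnk15, a member of the leak channel branch, went the other way, with 4550 in both shCTR libraries and 4150 and 3550 in shPHF8.

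Over all channel genes, the promoter windows showed no single direction. Of 63 channel genes with promoter coverage in at least 1 library, 11 had more covered bases in both shPHF8 libraries (17.5%, where all genes gave 14.5%) and 14 had fewer (22.2%, where all genes gave 14.6%). When each library was scaled to the same total covered length, the counts were 4 more and 25 fewer of 63, where all genes gave 8.90 and 31.9%. When only the widest peaks of each library were kept, until each library covered the same length (peak sets of equal length), they were 8 more and 19 fewer of 59, where all genes gave 8.95 and 25.4%. Summed over the 130 genes, promoter windows held 114 and 142 covered kb in shCTR and 131 and 107 kb in shPHF8, which overlap.

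**Figure D1:**
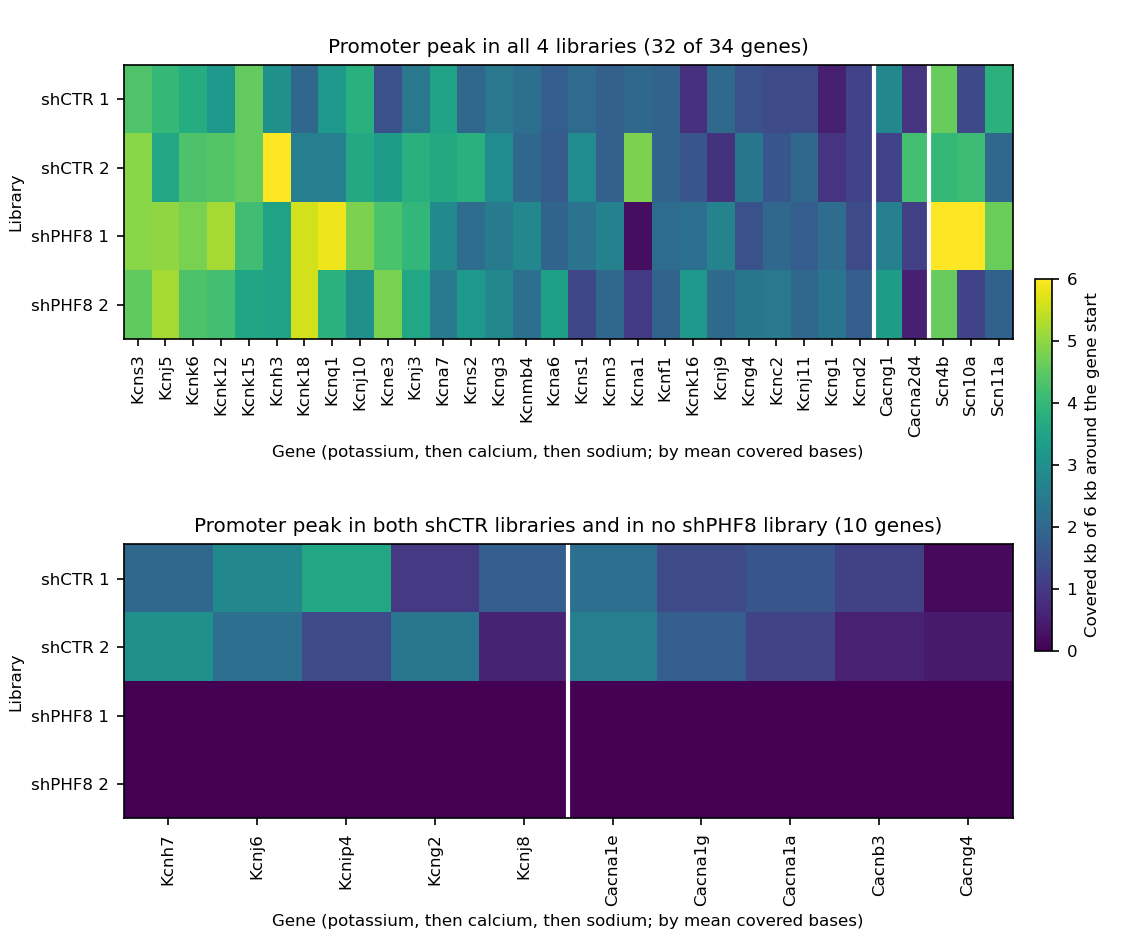
Covered kb in the promoter window (colour) for each ChIP library (rows) and gene (columns), with potassium, calcium and sodium channel genes from left to right, separated by white lines. The upper panel holds 32 of the 34 genes with a promoter peak in all 4 libraries and the lower panel the 10 genes with a peak in both shCTR libraries and in no shPHF8 library.

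In all, 10 channel genes (7.69%) had a promoter peak in both shCTR libraries and in neither shPHF8 library. The share over all protein-coding genes was 2.21%, and 3.01% for other genes of the same length classes. The opposite pattern, a promoter peak in both shPHF8 libraries only, was found at 1 channel gene, Scn4a, or 0.769% against 1.07% of all genes. The 10 were 5 potassium channel genes (Kcnh7, Kcnip4, Kcnj6, Kcnj8 and Kcng2) and 5 calcium channel genes (Cacna1a, Cacna1e, Cacna1g, Cacnb3 and Cacng4). With peaks of at least 3000 bases the count was 1 (Cacng4), where all genes gave 0.423%, since most of these peaks were narrower. With a window of 1 kb on each side of the start it was 6, where all genes gave 1.28%. Peak sets of equal length, which lower shPHF8 by construction, gave 12 of 130, where all genes gave 5.15%.

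By family, the 10 genes were 5 of 25 calcium, 5 of 91 potassium and 0 of 14 sodium channel genes, and the difference among families has no test here. Of 13 calcium channel genes with promoter coverage in any library, none had more covered bases in shPHF8 and 5 had fewer, where all genes gave 14.5 and 14.6%. The counts were 0 more and 6 fewer after scaling to the same total, where 31.9% of all genes had fewer, and 0 more and 4 fewer with peak sets of equal length, where 25.4% had fewer. Both settings lower shPHF8 by construction. The absence of genes with more depended on the window. Windows around every transcript start gave 2 calcium channel genes with more and 7 with fewer, where all genes gave 18.6 and 14.2%. A window of 1 kb on each side gave 1 more and 2 fewer, where all genes gave 9.88 and 11.9%. With that window 2 calcium channel genes had a promoter peak in shCTR only. Among the 9 alpha1 (pore-forming) genes, promoter coverage summed to 5.58 and 6.82 kb in shCTR and to 0.783 and 0 kb in shPHF8. Most of it came from Cacna1e, Cacna1g and Cacna1a. Cacna1e, the R-type channel, had 2200 and 2600 covered bases at its promoter in shCTR, Cacna1g, a T-type channel, had 1400 and 1800, and Cacna1a, the P/Q-type channel of presynaptic terminals, had 1600 and 1240, while all 3 had 0 in both shPHF8 libraries. The shCTR peaks over Cacna1e spanned positions -699 to 2300 relative to the gene start (chr1:154882201-154885200, over the noncoding first exon). Those of Cacna1g lay downstream at positions 598 to 2397 (chr11:94471801-94473600, 225 coding bases and otherwise intron) and those of Cacna1a at positions 1361 to 4160 (chr8:84389801-84392600, within an intron). Cacnb3, a cytoplasmic beta subunit, had 1161 and 561 covered bases upstream of its start, and Cacng4, an AMPA receptor-associated gamma subunit, only 157 and 444. With peaks merged over the 4 libraries, no region found in shCTR only lay over Cacng4 or within 3 kb of it.

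Among potassium channel genes, 3 such peaks covered the gene start. Kcnh7, an EAG-family channel, had 2000 and 3000 covered promoter bases in shCTR. Kcnip4, a calcium-binding partner of Kv4 channels, had 3600 and 1400, and Kcnj6, a G protein-gated inward rectifier of neurons, had 2800 and 2200. All 3 were at 0 in shPHF8. The peaks ran from -1113 to 1886 at Kcnh7 (chr2:63182401-63185400), from -1293 to 2506 at Kcnip4 (chr5:49522401-49526200) and from -299 to 2500 at Kcnj6 (chr16:94995201-94998000). Kcnj8, the pore of the vascular ATP-sensitive channel, had 1800 and 600 covered bases just inside the gene, and Kcng2, a silent modulatory subunit, had 1000 and 2347.

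Sequence at these sites is shown for gene starts with a peak in shCTR only and for those with a peak in all libraries, because the inward rectifiers Kcnj6, Kcnj3 and Kcnj5 encode subunits of the same G protein-gated channels and differed there. For Kcnh7, Kcnj6, Kcnj3 and Kcnj5 the 250 bases before the RefSeq start are given, for Cacna1e the 250 bases before the GENCODE start, and for Cacna1a and Cacna1g the central 250 bases of the shCTR peak. All are on GRCm38.p6, written 5′ to 3′ on the strand of the gene, and capitals mark CG dinucleotides.
Kcnj6, peak in shCTR only, chr16:94997697-94997946, minus strand: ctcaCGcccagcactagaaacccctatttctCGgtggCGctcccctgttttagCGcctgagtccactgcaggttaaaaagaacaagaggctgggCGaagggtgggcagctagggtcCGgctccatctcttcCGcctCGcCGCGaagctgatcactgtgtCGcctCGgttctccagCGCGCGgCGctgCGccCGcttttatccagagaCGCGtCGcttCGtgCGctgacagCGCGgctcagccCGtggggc
Kcnh7, peak in shCTR only, chr2:63184288-63184537, minus strand: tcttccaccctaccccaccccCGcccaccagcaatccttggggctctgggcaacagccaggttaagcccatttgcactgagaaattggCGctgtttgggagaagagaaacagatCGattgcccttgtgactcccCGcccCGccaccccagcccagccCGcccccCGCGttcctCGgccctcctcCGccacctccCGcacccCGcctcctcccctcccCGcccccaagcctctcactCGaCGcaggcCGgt
Cacna1e, peak in shCTR only, chr1:154884502-154884751, minus strand: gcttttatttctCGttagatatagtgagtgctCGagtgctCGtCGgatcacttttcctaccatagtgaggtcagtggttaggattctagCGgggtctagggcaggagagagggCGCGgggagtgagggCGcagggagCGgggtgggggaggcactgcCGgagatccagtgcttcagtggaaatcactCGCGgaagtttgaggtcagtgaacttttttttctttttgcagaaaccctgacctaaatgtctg
Cacna1a, peak in shCTR only, chr8:84391076-84391325, plus strand: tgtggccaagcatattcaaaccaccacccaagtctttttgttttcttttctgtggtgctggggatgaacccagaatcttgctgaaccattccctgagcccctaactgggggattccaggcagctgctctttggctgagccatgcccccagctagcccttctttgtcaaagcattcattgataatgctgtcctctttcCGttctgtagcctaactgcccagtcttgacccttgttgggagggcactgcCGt
Cacna1g, peak in shCTR only, chr11:94472576-94472825, minus strand: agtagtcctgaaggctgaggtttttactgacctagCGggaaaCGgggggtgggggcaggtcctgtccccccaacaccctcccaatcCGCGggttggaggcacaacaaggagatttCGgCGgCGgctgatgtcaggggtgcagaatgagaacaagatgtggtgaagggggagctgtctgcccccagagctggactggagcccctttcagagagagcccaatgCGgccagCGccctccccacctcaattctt
Kcnj3, peak in all libraries, chr2:55435720-55435969, plus strand: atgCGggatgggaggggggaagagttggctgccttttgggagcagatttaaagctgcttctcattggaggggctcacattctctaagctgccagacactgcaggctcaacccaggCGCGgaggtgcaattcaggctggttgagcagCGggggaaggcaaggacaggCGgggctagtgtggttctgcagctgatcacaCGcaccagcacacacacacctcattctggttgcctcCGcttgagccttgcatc
Kcnj5, peak in all libraries, chr9:32344345-32344594, minus strand: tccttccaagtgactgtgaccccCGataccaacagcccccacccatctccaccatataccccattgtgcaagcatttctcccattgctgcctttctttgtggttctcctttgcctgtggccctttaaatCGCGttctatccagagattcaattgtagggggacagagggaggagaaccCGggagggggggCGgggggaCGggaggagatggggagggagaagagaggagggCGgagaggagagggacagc
The 250 bases before Kcnj6 held 26 CG dinucleotides and 64.0% G or C, and those before Kcnh7 held 16 and 67.6%. Those before Kcnj3 and Kcnj5, where the start was covered in all libraries, held 7 each with 58.4 and 58.0%. At Cacna1e 12 were counted, at Cacna1g 9 and in the Cacna1a intron 2.

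A count of CG in a window of 250 bases before to 50 after each GENCODE start put these in context. The median was 10 in channel genes with a promoter peak in all libraries (n = 34, range 1 to 49) and 9 in those without any (n = 67, range 0 to 51). It was 15.5 in the 10 with a peak in shCTR only, which ranged from 1 at Cacna1a to 53 at Cacng4. Over all protein-coding genes the medians were 13, 11 and 20 for the same 3 patterns, and 12 in all. At least 1 CG was present in 99.2% of channel gene windows and in 94.9% of all windows.

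In the opposite direction, the widest differences at promoters were at Kcnk18, a leak channel of sensory neurons, with 2000 and 2600 covered bases in shCTR and 5587 in both shPHF8 libraries, and at Scn4a, the skeletal muscle sodium channel, with 0 in both shCTR libraries and 1488 and 3888 in shPHF8. Kcnq1, the heart and epithelial KCNQ channel, had 3200 and 2600 against 5839 and 3839. Kcne3, an auxiliary subunit that partners Kcnq1, had 1502 and 3302 against 4302 and 4801. Kcng1, a silent subunit, had 536 and 936 against 2136 and 2336. After scaling to the same total, Kcnk18, Scn4a and Kcng1 still did not overlap between the conditions, while Kcnq1 and Kcne3 did. Kcna1, a Kv1 channel of axons, had the largest difference in the other direction, with 2017 and 4817 in shCTR and 217 and 1017 in shPHF8.

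Gene bodies were covered in most channel genes. A body peak was present in all 4 libraries for 75 of 130 (57.7%), against 30.9% of all genes and 46.6% of other genes over the same length classes. There was no body peak in any library in 26 (20.0%), where all genes gave 50.8%. The share was above that of other genes in the length classes under 100 kb and below it in those above. Under 10 kb, all potassium, 9 of 22 channel genes had a body peak in all libraries (40.9%) against 797 of 7265 other genes of that length, and from 30 to 100 kb 22 of 33 did (66.7% against 46.1%). Above 300 kb it was 15 of 19 (78.9%) against 89.3%. At least 25% of the body was covered in all 4 libraries in 15 channel genes, 11.5% of them, against 5.89% of all genes. Exons of channel genes were covered to 13.3% on average over the libraries and their introns to 7.03%, whereas all protein-coding genes had 8.01 and 7.93%. In channel genes of 30 kb or more, exons were covered to 10.9 and 11.7% in shCTR and 12.9 and 12.5% in shPHF8, and introns to 6.86% on average. Bases of channel gene bodies covered in all libraries (0.493 Mb) had 47.9% G or C and 22.1% repeat-masked bases, and those covered in none had 42.5 and 24.7%. For all genes the values were 46.5 and 27.0%, and 42.7 and 27.1%.

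The most fully covered potassium channel genes were small or auxiliary. Kcna7, a Kv1 channel of muscle, was covered over 4111 of its 4111 bases in both shCTR libraries and over 3963 and 3563 in shPHF8. Kcnmb4, the neuronal beta subunit of the large-conductance calcium-activated channel, was covered over 48140 and 52140 of 56018 bases in shCTR and 51540 and 49140 in shPHF8. Its domain, merged over the libraries, spanned 55800 bases (chr10:116416601-116472400), and the conditions overlapped. The pore gene of that channel, Kcnma1, was covered over only 2.36% of its 725061 bases. Kcnf1, a silent Kv subunit, had a mean covered share of 75.7%, Kcna1 60.9% and Kcne3 49.9%.

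By number of bases, Kcnq1 led with 80281 and 98881 in shCTR and 94081 and 88881 in shPHF8. Its imprinted locus held a merged region of 42600 bases in which all 4 libraries had peaks (chr7:143214401-143257000). Kcnh1, a cell cycle-linked EAG channel, had 64600 and 51159 against 69000 and 58400, and Kcnip1, a Kv4 partner, 30400 and 33800 against 38800 and 42800. Only Kcnip1 separated the conditions among these 3, and it overlapped after scaling.

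Calcium channel genes with the largest covered shares were gamma subunits. Cacng5 had a mean of 42.3% and Cacng8 38.6%, followed by the alpha2delta subunit Cacna2d4 at 22.0%, Cacng4 at 20.0% and the T-type channel Cacna1i at 19.3%. Cacna1c, the L-type channel of heart and brain, had the most covered bases, 60200 and 70400 in shCTR and 72600 and 66000 in shPHF8. Cacna1a had 26000 and 29800 against 29800 and 30800, and Cacna1e 27701 and 22501 against 24600 and 28400, so the bodies of these 2 genes did not separate the conditions although their promoters did. The beta subunit genes were the least covered group, at 0.449 to 1.85% of their summed bodies.

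Coverage differed between clusters of neighbouring sodium channel genes. Scn10a and Scn11a, channels of pain-sensing neurons, lie side by side on chromosome 9. The body of Scn10a had 12400 and 23122 covered bases in shCTR and 33522 and 22722 in shPHF8, which overlap, a mean covered share of 20.7%. Scn11a was covered to 44.8% on average. On chromosome 2, the stretch of 310 kb with Scn3a and Scn2a, channels of the developing and adult brain, was covered to 0.709 and 0% in shCTR and 0 and 2.32% in shPHF8. The neighbouring stretch of 514 kb with Scn1a, Scn9a and Scn7a was covered to 1.32 and 0.622% in shCTR and 0 and 1.05% in shPHF8. Scn2a, Scn3a and Scn7a had no peak in body or promoter in any library. Scn8a, the other main brain channel, lies alone on chromosome 15 and had 11800 and 10200 covered bases in shCTR and 17600 and 13600 in shPHF8. Of the beta subunits, Scn3b had no peak at all, whereas Scn2b and Scn4b did, and all 3 lie on chromosome 9.

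**Figure D2:**
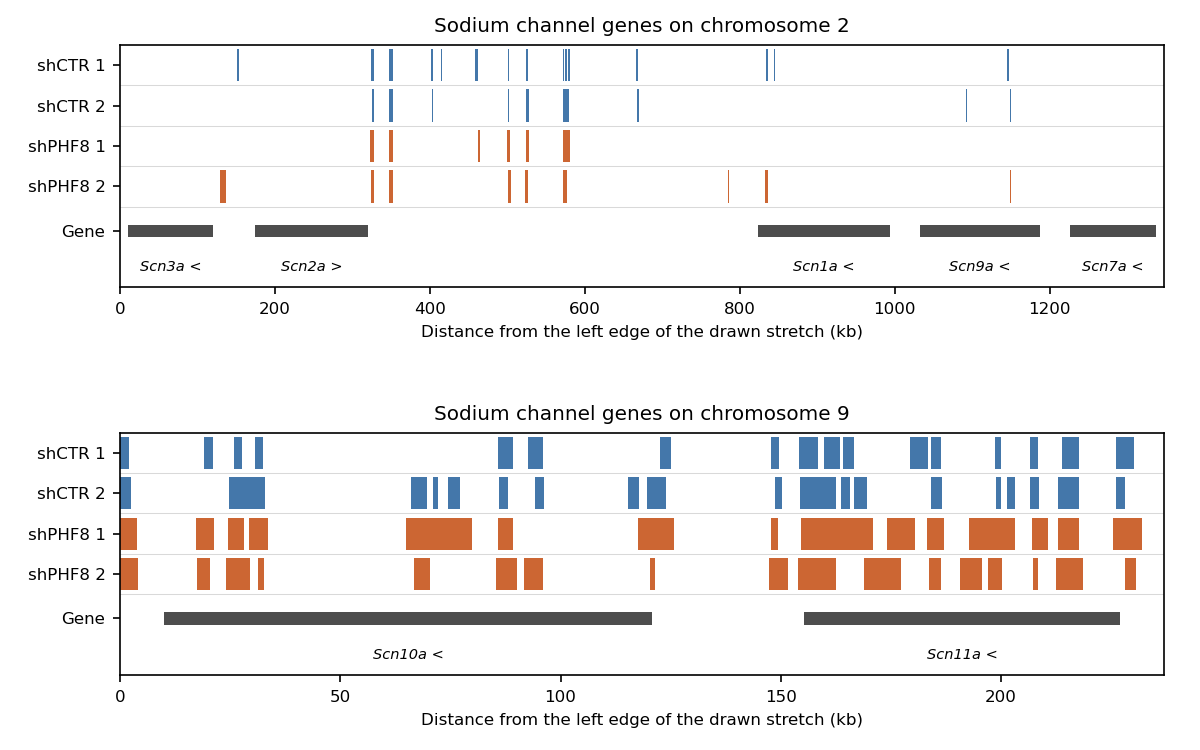
Called H3K9me3 peaks (filled blocks, blue for shCTR and orange for shPHF8) in the 4 ChIP libraries along the sodium channel genes of chromosome 2 (upper panel) and chromosome 9 (lower panel), with genes as grey bars and their direction as an arrowhead. The x axis is the distance in kb from the left edge and differs in scale between the panels. Scn10a and Scn11a are covered in every library, and Scn3a, Scn2a and Scn7a hold no peak.

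In all, 24 channel genes had no peak in body or promoter in any library, 18 of them potassium, 1 calcium (Cacng6) and 5 sodium channel genes. Among them were Kcna2, Kcna4 and Kcna5, Kcnh2 (the cardiac HERG channel), Kcnj2 (a classical inward rectifier), Kcne1 and Kcne2 (small auxiliary subunits) and Kcnip3. Neighbouring genes could differ. Kcna5 had no peak, while Kcna1 and Kcna6, in the same stretch of 208 kb on chromosome 6, were covered to 60.9 and 21.6% on average.

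Between the conditions, gene bodies of channel genes were more widely covered in shPHF8, as were those of all genes. Of 104 with a body peak in at least 1 library, 36 had more covered bases in both shPHF8 libraries (34.6%, where all genes gave 27.8% and other genes of the same length classes 31.4%) and 16 had fewer (15.4%, where both gave 12.8%). Summed covered length was 1050 and 1114 kb in shCTR and 1392 and 1266 kb in shPHF8, a ratio of 1.23 ± 0.0973 (SD propagated from 2 libraries per condition), against 1.20 ± 0.0950 over all protein-coding genes. The direction depended on the scale. After scaling to the same total covered length, 19 had more and 30 fewer and the ratio was 0.933, and peak sets of equal length gave 19 more and 29 fewer with a ratio of 0.920. Over all genes, scaling gave 14.8% more and 29.9% fewer. By family the ratio was 1.22 ± 0.0901 for potassium, 1.15 ± 0.102 for calcium and 1.52 ± 0.432 for sodium channel genes.

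**Figure D3:**
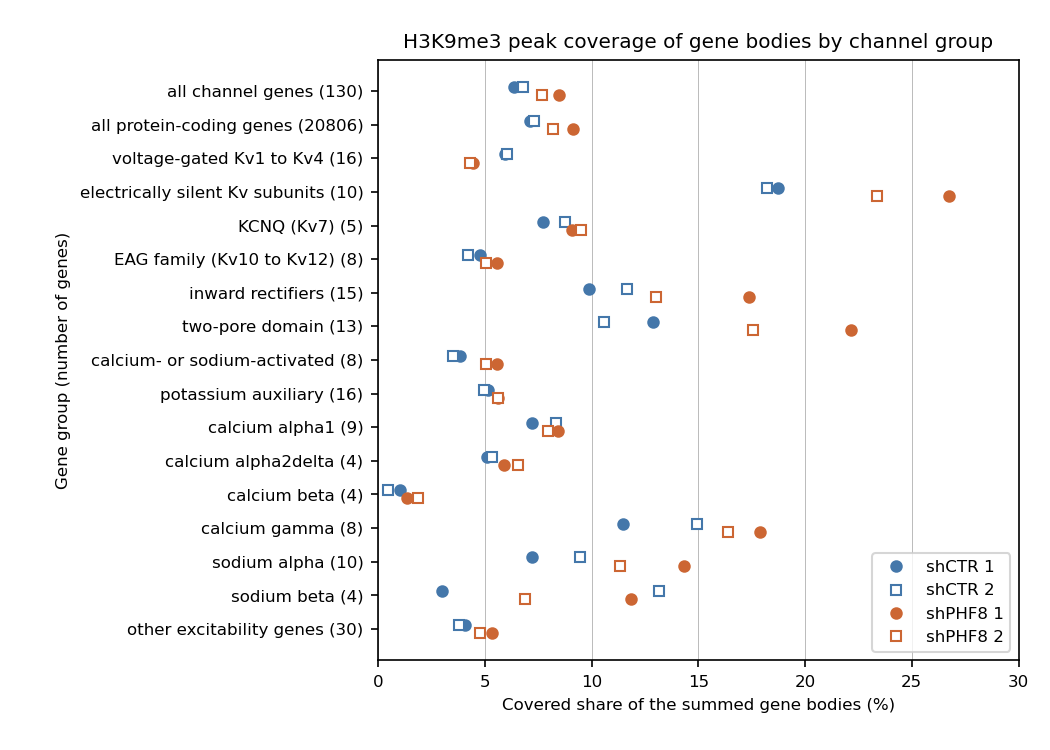
Covered share of the summed gene bodies (x axis, percent) in each ChIP library for the 14 channel groups, all channel genes, all protein-coding genes and a list of 30 other excitability genes. Blue marks are shCTR and orange marks shPHF8, filled for replicate 1 and open for replicate 2. The 10 silent Kv genes and the 13 tandem pore domain genes stand highest in shPHF8, and only the Kv1 to Kv4 group lies lower in both shPHF8 libraries than in both shCTR libraries.

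Within the potassium family, the ratio was highest in the tandem pore domain (leak) channel genes. Their 13 bodies held 85.4 and 70.3 covered kb in shCTR and 147 and 116 kb in shPHF8, a ratio of 1.69 ± 0.363 before any scaling. Kcnk2, a mechanosensitive leak channel, had 21600 and 13200 covered bases in shCTR and 39871 and 24271 in shPHF8, and without it the ratio was 1.65. Kcnk12 had 19200 and 20200 against 33194 and 30000, and Kcnk13, a halothane-inhibited channel, 21400 and 17600 against 32482 and 30200. Kcnk3, an acid-sensitive leak channel, was the 1 channel gene with a body peak in both shPHF8 libraries only (0.769% against 1.16% of all genes), with 0 in shCTR and 3800 and 2800 in shPHF8. Kcnk12 and Kcnk13 stayed without overlap after scaling to the same total, and Kcnk2 did not.

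The inward rectifiers held the largest single difference. Kcnj6 had 35501 and 46101 covered bases in shCTR and 82600 and 61800 in shPHF8, a difference of 31399 between the means. Across the gene, 4 intronic regions had peaks in both shPHF8 libraries only, while the region over its start had peaks in both shCTR libraries only. Coverage of body and promoter therefore differed between the conditions in opposite directions in the same gene. The body difference stayed without overlap after scaling and with peak sets of equal length, while a promoter at 0 in shPHF8 stays at 0 under either by construction. Without Kcnj6, the other 14 inward rectifier genes summed to 35.9 and 38.2 kb in shCTR and 42.9 and 32.4 kb in shPHF8, which overlap. Kcnj10, the glial channel that takes up potassium, had 7991 and 7791 body bases in shCTR and 6791 and 3591 in shPHF8, and Kcnj16, its partner subunit, had 3400 and 8800 against 2000 and 1400.

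Kcnn2, a small-conductance calcium-activated channel, had the next largest difference, with 4400 and 3200 covered bases in shCTR and 11000 and 29624 in shPHF8. Its 2 shPHF8 libraries lay far apart. Among sodium channel genes, Scn11a had 23298 and 25098 against 46498 and 33642, without overlap, also after scaling. Scn4a had 1409 and 0 against 13800 and 6088. Cacna2d3, an alpha2delta subunit, had 28400 and 34800 against 40000 and 49000 and overlapped after scaling. Of 9 sodium channel genes with a body peak, 4 had more covered bases in shPHF8 and 1, Scn9a, had fewer, where all genes gave 27.8 and 12.8%. After scaling, 2 sodium channel genes had more and 1 fewer, where all genes gave 14.8 and 29.9%. Calcium channel genes gave 8 more of 23 (34.8%), against 35.5% of other genes of the same length classes, and 4 fewer (17.4%, against 13.1%). After scaling they gave 2 more and 7 fewer, where all genes gave 14.8 and 29.9%.

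**Figure D4:**
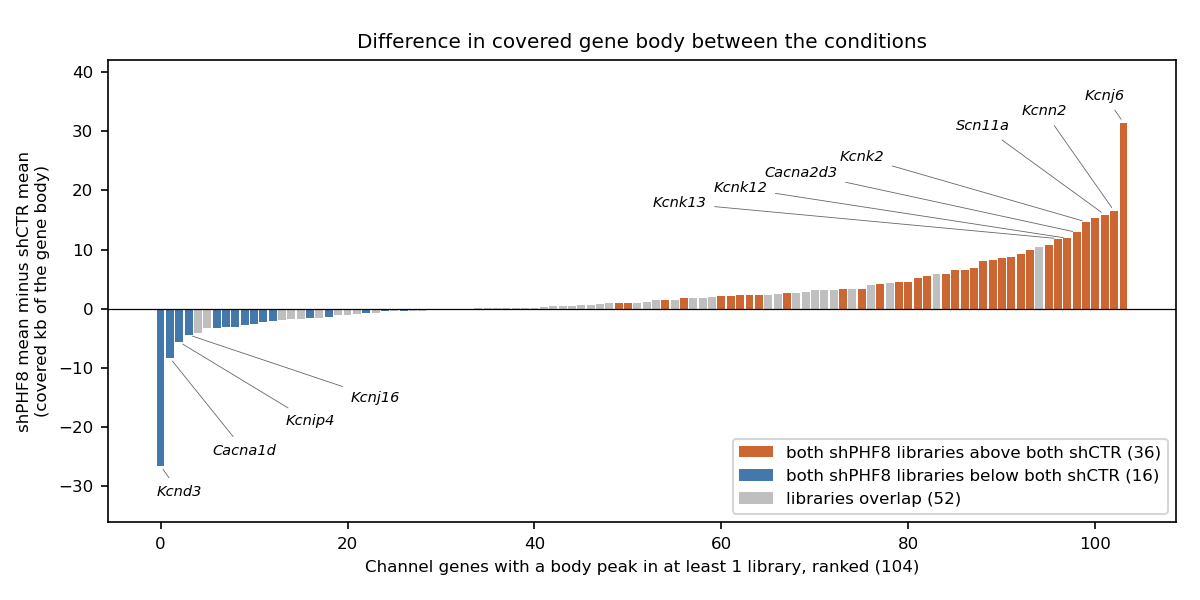
Difference between the condition means in covered kb of the gene body (y axis, shPHF8 minus shCTR) for the 104 channel genes with a body peak, ranked from lowest to highest. Orange bars are the 36 genes with both shPHF8 libraries above both shCTR libraries, blue bars the 16 with both below, and grey bars the 52 that overlap. Kcnj6 and Kcnd3 lie at the ends.

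Kcnd3, a Kv4 channel that carries transient outward current in heart and neurons, went the other way. It had 44000 and 46000 covered bases in shCTR and 18600 and 18400 in shPHF8, a difference of -26500 between means, and the libraries of a condition lay close together. In all, 7 of its merged regions had peaks in both shCTR libraries and in no shPHF8 library. Of these 6 were intronic, and the last (chr3:105664401-105666400) held 192 coding bases. Without Kcnd3, the other 15 Kv1 to Kv4 genes summed to 52.6 and 52.2 kb in shCTR and 53.8 and 51.6 kb in shPHF8. The partner subunit gene Kcnip4 had 6907 and 4307 covered bases in shCTR and 0 in shPHF8, and Kcnd2, the other main neuronal Kv4 channel, had 3000 in both shCTR libraries and 1400 and 1800 in shPHF8. Kcnip1 and Kcnip2, partners of the same channels, had more covered bases in shPHF8 instead, with 2000 and 1800 against 4800 and 4200 for Kcnip2. The promoter window of Kcnd2, unlike its body, also had more, with 1200 in both shCTR libraries and 1400 and 1800 in shPHF8.

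Some other main subunits of brain channels, taken whatever their values, are given here. Those already described are left out, so this remainder does not stand for main brain subunits as a whole. Of the genes described above, Scn8a, Kcnk2 and Kcnip1 had more covered body bases in shPHF8, and Kcnd2 and Kcnj10 had fewer. Over all genes 27.8% had more and 12.8% fewer, so overlap was also the most frequent outcome there. Kcnc1, a channel of fast-spiking neurons, had 8904 and 8104 covered body bases in shCTR and 8104 and 5104 in shPHF8. Kcnq3, a KCNQ channel of neurons, had 7400 and 5400 against 4000 and 12600. Kcnc1 and Kcnq3 gave no separation between the conditions. Cacna2d1, an alpha2delta subunit, had 20200 and 11800 against 15000 and 18000, and Cacnb4, a beta subunit, had 5200 and 3000 against 9000 and 5000, again with overlap. Cacng2 (stargazin), which carries AMPA receptors to synapses, had 4600 and 11600 against 19800 and 13400, and Kcnab1, a beta subunit of Kv1 channels, had 5600 and 4200 against 7000 in both shPHF8 libraries. Cacng2 and Kcnab1 had more covered bases in shPHF8, and both overlapped after scaling.

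A body peak in both shCTR libraries and in neither shPHF8 library was found in 5 channel genes (3.85%, against 2.09% of all genes). Besides Kcnip4 these were Kcnb2, a delayed rectifier with 1400 and 4600 covered bases in shCTR, Kcnj1, the renal ROMK channel, with 1308 and 3000, Cacna1g with 1400 and 1800, and Kcne4, an auxiliary subunit, with 28 and 800. At Kcnj1 and Kcne4 the peaks of the shCTR libraries lay at different positions and did not overlap each other. Other genes with fewer covered bases were Cacna1d, an L-type channel, with 19000 and 27600 against 13000 and 17000, Cacng4 with 11400 and 16600 against 11000 and 10800, and Kcnh7 with 2287 and 5487 against 0 and 1400. All 16 genes with fewer covered bases stayed without overlap after scaling to the same total, which lowers shPHF8 values by construction.

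**Figure D5:**
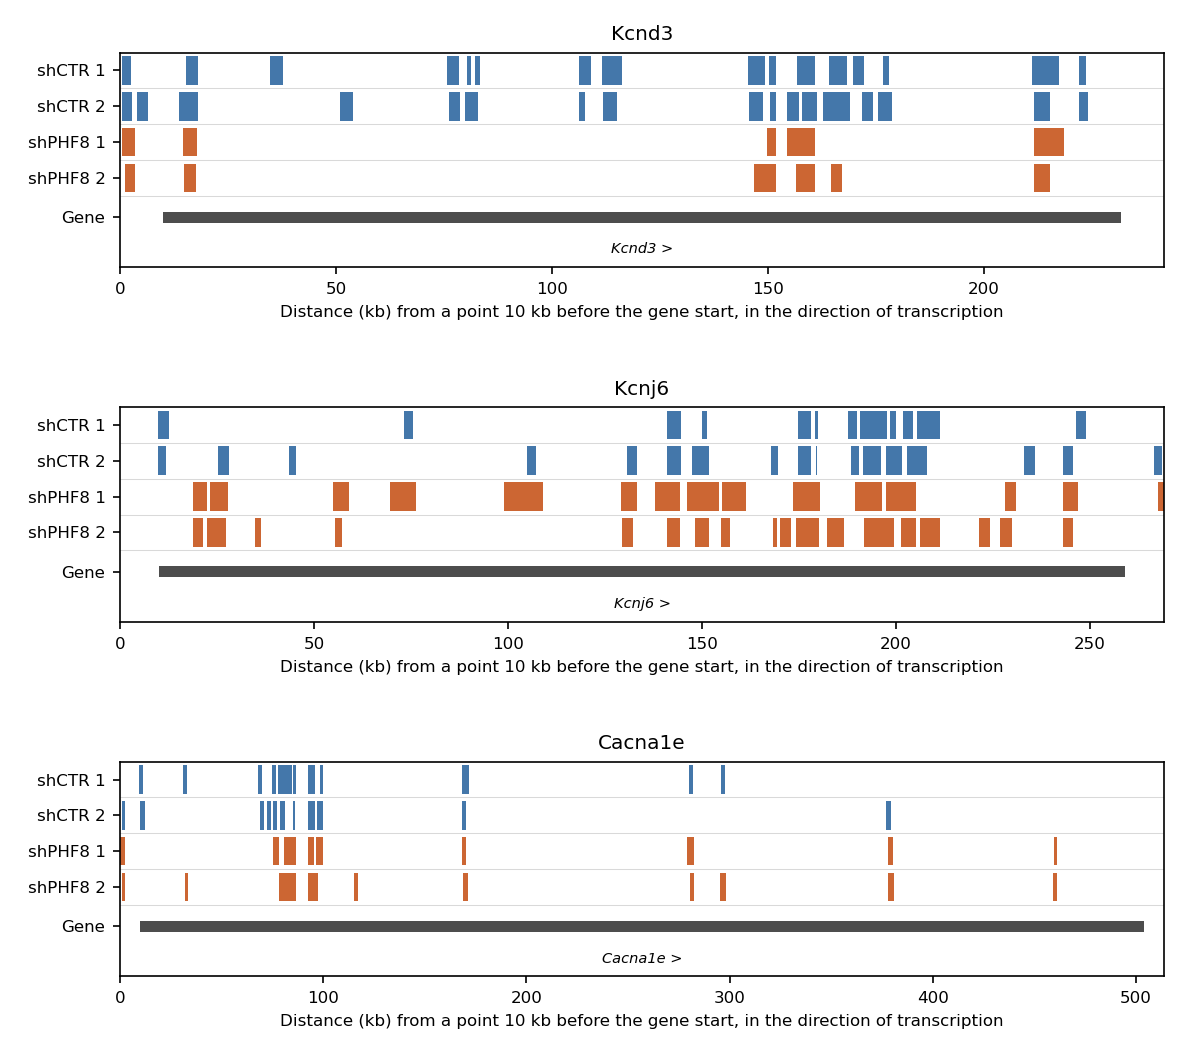
Called H3K9me3 peaks (filled blocks, blue for shCTR and orange for shPHF8) along Kcnd3, Kcnj6 and Cacna1e, drawn in the direction of transcription. The x axis is the distance in kb from a point 10 kb before the gene start, and the grey bar is the gene. Kcnd3 lacks peaks in shPHF8 over much of its body, Kcnj6 has additional ones in shPHF8 but none at its start, and Cacna1e differs at its start.

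Merged over the 4 libraries, 549 peak regions lay over channel genes or within 3 kb of them. Of these 201 had a peak in all libraries (36.6%), 21 in both shPHF8 libraries only (3.83%) and 40 in both shCTR libraries only (7.29%). Regions over all protein-coding genes gave 40.7, 3.62 and 6.33%, so the shares of the channel genes lay near the background. The potassium family held 13 and 24 of the last 2 kinds, the calcium family 6 and 16, and the sodium family 2 and 0. Regions found in shPHF8 only had a median width of 4200 bases, and 14 of 21 lay wholly within introns. Those found in shCTR only had a median of 2800 bases, 27 of 40 were intronic, and 4 held a gene start (Cacna1e, Kcnh7, Kcnip4 and Kcnj6). Just 1 region found in shPHF8 only held a start, that of Scn4a. Libraries with wider peaks merge neighbouring regions, and the part of this in the counts was not tested.

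A list of 30 other genes of excitability, among them ankyrins, ryanodine and IP3 receptors and calcium pumps, gave values for comparison. Their bodies had a peak in all libraries in 23 of 30, where all genes, of any length, gave 30.9%. Promoters did in 1 of 30 (Atp2b2, a calcium pump), where all genes gave 11.7%. In the body 12 had more covered bases in shPHF8 and 6 fewer of 29, where all genes gave 27.8 and 12.8%. At the promoter 1 had more and 6 fewer of 12, where all genes gave 14.5 and 14.6%. A promoter peak in both shCTR libraries only was found at 4 of 30 (among them Dpp10, Slc24a2 and Stac2), where all genes gave 2.21%. Dpp10 encodes an auxiliary subunit of Kv4 channels, and its promoter held 3400 and 1600 covered bases in shCTR and 0 in shPHF8. Dpp6, also on the list, had more covered body bases in shPHF8 instead (24200 and 25398 in shCTR against 36000 and 41800). The promoter of Dpp6 held 0 and 2600 against 0 and 798, which overlap. Promoter coverage of this list summed to 19.1 kb in both shCTR libraries and to 8.27 and 5.49 kb in shPHF8.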

How the data were processed

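H3K9me3 ChIP-seq was analysed in 4 libraries (shCTR and shPHF8, 2 each), with the 2 inputs left aside. Reads were single-end per the labels. Per the methods, SOAP2 placed them on mm10, and the authors obtained broad peaks from SICER2. The submitters' processing notes also name Bowtie2 2.3.5.1, SAMtools 1.9 and deepTools without a role. Window, gap and false discovery rate of the peak calls are not given in the sources used here. The deposited lists hold peak positions only, on a grid of 200 bp, with no count, score or signal.

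Covered bases were counted per gene and library with Python 3.11.15, numpy 2.4.6 and GENCODE M21, and checked against bedtools 2.31.1 and on simulated peaks. Channel genes were compared with other genes in length classes divided at 10, 30, 100 and 300 kb, and 14 of the 130 overlap another protein-coding gene, whose peaks count for both. RefSeq promoter sequences (GRCm38.p6) matched 86 of the 130 genes within 1000 bp of the start. Some genes are counted but not reported by name here, and 1 gene was left out of the rule.

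Members and lists were chosen with earlier results of these data known. Genes were named by rule: the 10 with the widest promoter coverage among those with a promoter peak in all libraries, the 5 per family with the largest covered share and the most covered bases, the 8 largest body and 5 largest promoter differences in each direction, those with body peaks in 1 condition only, 22 main brain subunits whatever their values, and the widest peak per family. Other genes were named after their values were seen, to illustrate a group. Alternatives were other promoter windows and start sites, bodies without their first 3 kb, peaks of at least 3000 bp, scaling to the same total, peak sets of equal length, a gap of 1000 bases, at least 10% coverage, each library left out, the replicate number as a block, and members without overlapping genes.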

Additional observations from a re-analysis of the deposited data

How the results depend on the processing

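The summed body ratio of 1.23 turned to 0.933 when libraries were scaled to 1 total covered length and to 0.920 with peak sets of equal length. Scaling gave 19 channel genes with more and 30 with fewer covered bases in the body and 4 and 25 at the promoter. Peak sets of equal length gave 19 and 29 in the body, where all genes gave 13.1 and 30.0%, and 22 promoters with a peak in all libraries. These settings remove the wider total of shPHF8 by construction. Peaks of at least 3000 bases gave 7 of 85 genes with fewer covered bases in the body and 3 of 47 at the promoter. All genes gave 4.90 and 7.08%. This setting also gave 41 bodies and 14 promoters with a peak in all libraries and a ratio of 1.67. Promoter peaks in shCTR only were at 1 gene and in shPHF8 only at 2, where all genes gave 0.423 and 1.87%. A window of 1 kb gave 7 more and 7 fewer of 50, where all genes gave 9.88 and 11.9%, and 20 in all libraries. With this window 6 were in shCTR only and 3 in shPHF8 only, where all genes gave 1.28 and 0.673%. Every transcript start gave 19 of 82 with more covered promoter bases and 2 with a promoter peak in shPHF8 only, where all genes gave 18.6 and 1.44%. Bodies without their first 3 kb gave 9 of 98 with fewer covered bases, where all genes gave 11.5%. A gap of 1000 bases gave 10 of 104 fewer in the body, where all genes gave 7.94%. At the promoter this gap gave 5 more and 8 fewer of 63, where all genes gave 4.87 and 6.38%. Requiring 10% coverage left 38 bodies with a peak in all libraries. The cause of these moves was not tested, except that narrower windows and fewer peaks can only remove coverage.

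Leaving out each library in turn gave 46 to 52 genes with more and 21 to 30 with fewer covered bases in the body, 12 to 26 and 14 to 29 at the promoter, 75 to 79 bodies and 34 to 36 promoters with a peak in all libraries, a ratio of 1.17 to 1.29, and promoter peaks in shCTR only at 11 to 16 genes and in shPHF8 only at 1 to 4. A comparison of 3 libraries separates more genes than 1 of 4, and did so over all genes as well. The counts below moved by over 1.5 times. Without shCTR replicate 1, 30 of 99 bodies and 29 of 62 promoters had fewer covered bases, where all genes gave 25.9 and 33.56%. Promoter peaks in shCTR only were then at 16 of 130, where all genes gave 4.85%. Without shCTR replicate 2, 26 of 104 bodies had fewer and 20 of 57 promoters more, where all genes gave 23.3 and 24.36%. Promoter peaks in shPHF8 only were then at 2 of 130, where all genes gave 1.898%. Without shPHF8 replicate 1, 22 of 60 promoters had fewer, where all genes gave 25.4%. Without shPHF8 replicate 2, 26 of 63 promoters had more, where all genes gave 34.3%. Promoter peaks in shPHF8 only were then at 4 of 130, where all genes gave 2.59%.

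With the replicate number as a block, 43 bodies had more and 18 fewer, where all genes gave 33.3 and 16.2%. At the promoter 14 had more and 14 fewer, where all genes gave 18.0 and 17.8%. Same-numbered libraries did not deviate together (r = -0.108 across gene bodies of all genes, which are not independent). Pairing them crosswise gave 41, 19, 15 and 17, where all genes gave 33.5, 16.5, 18.1 and 17.8%. The alternatives for promoter peaks in 1 condition only and the crossed pairing were added after seeing the data. Without the members that overlap another gene, 32 bodies had more and 13 fewer.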
